A study of Mus musculus with 8 samples.

Results

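The genes described here are 36 genes of protein folding in the endoplasmic reticulum (ER) and of the unfolded protein response (UPR), out of 35275 genes in the deposited table. They were taken by name, as ER chaperones, protein disulfide isomerases, genes of ER-associated degradation (ERAD), translocon genes and UPR sensors, and all 36 were found by gene identifier. The libraries came from polyA RNA of mouse heart ventricle, 4 from RBX2iCKO mice and 4 from mice labelled WT, and all 8 are labelled as tamoxifen-treated. RBX2iCKO is an inducible knockout of Rbx2 made in the adult heart with Mer-Cre-Mer, a Cre recombinase that tamoxifen activates and that the cardiomyocyte promoter αMHC drives. The library titles of both groups begin with MCM, which may stand for Mer-Cre-Mer. Rbx2 is the gene Rnf7, whose product is the RING finger partner of cullin 5 in ubiquitin ligases. The labels used here give no age, sex or tamoxifen dose, and while the design speaks of 4 knockout ventricles, no label ties a library to its own mouse, so the p-values measure the spread between these libraries, which may be technical.

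Proteins bound for secretion, for membranes or for the sarcoplasmic reticulum of muscle enter the ER through the SEC61 translocon. Inside, they are folded by HSP70 and HSP90 family chaperones, by lectin chaperones that bind their sugar chains, and by disulfide isomerases, and those that fail are returned to the cytosol and degraded by ERAD. When unfolded protein builds up, the sensors IRE1, PERK and ATF6 start the UPR, in which ATF6 and spliced XBP1 activate chaperone and ERAD genes, and PERK lowers translation and raises ATF4.

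The targeted gene was checked first. Rnf7 had 7.53, 7.08, 6.86 and 7.13 FPKM in the RBX2iCKO libraries, against 36.7, 35.3, 40.7 and 36.5 FPKM in the WT libraries, where FPKM is the fragment count divided by gene length and by the library's total. The groups did not overlap (log2 difference -2.23, SE 0.07, limma adjusted p = 5.8e-07; two-sided exact permutation p = 0.0286, the smallest that 70 assignments allow). Esr1, the estrogen receptor gene whose ligand-binding part Mer-Cre-Mer carries, had 324, 391, 266 and 341 FPKM in RBX2iCKO and 2.06, 0.203, 0.534 and 0.231 FPKM in WT. The titles of the WT libraries also begin with MCM, so titles and Esr1 values differ on whether the WT mice carry the transgene. Because Esr1 differs between the groups, effects of Rbx2 loss and of the Cre transgene with tamoxifen cannot be told apart in any result below.

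The libraries held 18758692 to 23043686 counted fragments in RBX2iCKO and 18513924 to 22558094 in WT. Mitochondrial-encoded transcripts took 14.6% to 18.9% of fragments in RBX2iCKO and 22.5% to 25.05% in WT. Markers of other cell types also differed: as deposited, where 33.5% of all tested genes were higher and 3.52% lower, 12 of 13 fibroblast markers, 6 of 12 endothelial, 4 of 12 macrophage and 2 of 10 mural markers rose, and 1 mural marker fell. After the scaling described below, 11 fibroblast, 0 endothelial, 2 macrophage and 1 mural markers were higher and 1 mural marker lower. The summed FPKM of the fibroblast markers was 1814 to 2816 in RBX2iCKO and 962 to 1427 in WT, that of the endothelial markers 324 to 359 in RBX2iCKO and 241 to 310 in WT. The mural markers summed to 1083 to 1193 FPKM in RBX2iCKO and 862 to 984 in WT, and the macrophage markers to 211 to 417 FPKM in RBX2iCKO and 129 to 262 in WT. The 14 ventricular cardiomyocyte markers, of which 3 rose and 2 fell as deposited and 0 were higher and 4 lower after scaling, summed to 41394 to 49005 FPKM in RBX2iCKO and 44621 to 46837 in WT. None of these markers was at 0 in any library, although the labels call the cells cardiomyocytes. Of 10 plasma and B cell markers, 5 were tested and 1 rose, and the 10 summed to 56.2 to 141 FPKM in RBX2iCKO and 29.5 to 100.5 in WT. Of 7 erythroid markers 5 were tested and 0 passed (all 5 had positive differences), and the 7 summed to 3623 FPKM in RBX2iCKO replicate 1 and no more than 540.1 in any other library. In minced tissue, fewer cells of a type and less RNA per cell cannot be told apart, and the part of these markers in the results below was not tested.

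As deposited, the main ER chaperone gene Hspa5 and the lectin chaperone gene Canx fell in the RBX2iCKO ventricles. Some genes of the translocon and of mannose trimming and recognition in ERAD rose, as did those of the sensors IRE1 and PERK. After the scaling described below, Hspa5 and Canx remained lower, and of the genes that rose only Os9 and Sec61a1 remained higher. Of the 36 genes, 35 had a mean of at least 0.5 FPKM and were tested, and Derl3 was not. As deposited, 10 of the 35 rose (28.6%) and 2 fell (5.71%), while 33.5% of all 13050 genes tested were higher and 3.52% lower. FPKM is a share of the library, and over all tested genes the median difference was 0.21 on the log2(FPKM + 1) scale. The median of the 35 genes was 0.14, with 13 of them above and 22 below the median of all genes. After median-of-ratios scaling, which brought the median of all genes to 0.00, the median of the 35 was -0.12, and 2 were higher (5.71%) and 11 lower (31.4%), against 8.14% and 11.6% of all genes. The share of these 35 genes called higher did not exceed that of all genes on either scale, and the share called lower exceeded it most after scaling. The count of 10 was 6 without WT replicate 2, the library in which 29 of the 35 genes had their lowest WT value. Over all 13050 genes tested, 4374 were higher with all libraries and 2895 without WT replicate 2.

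**Figure D1:**
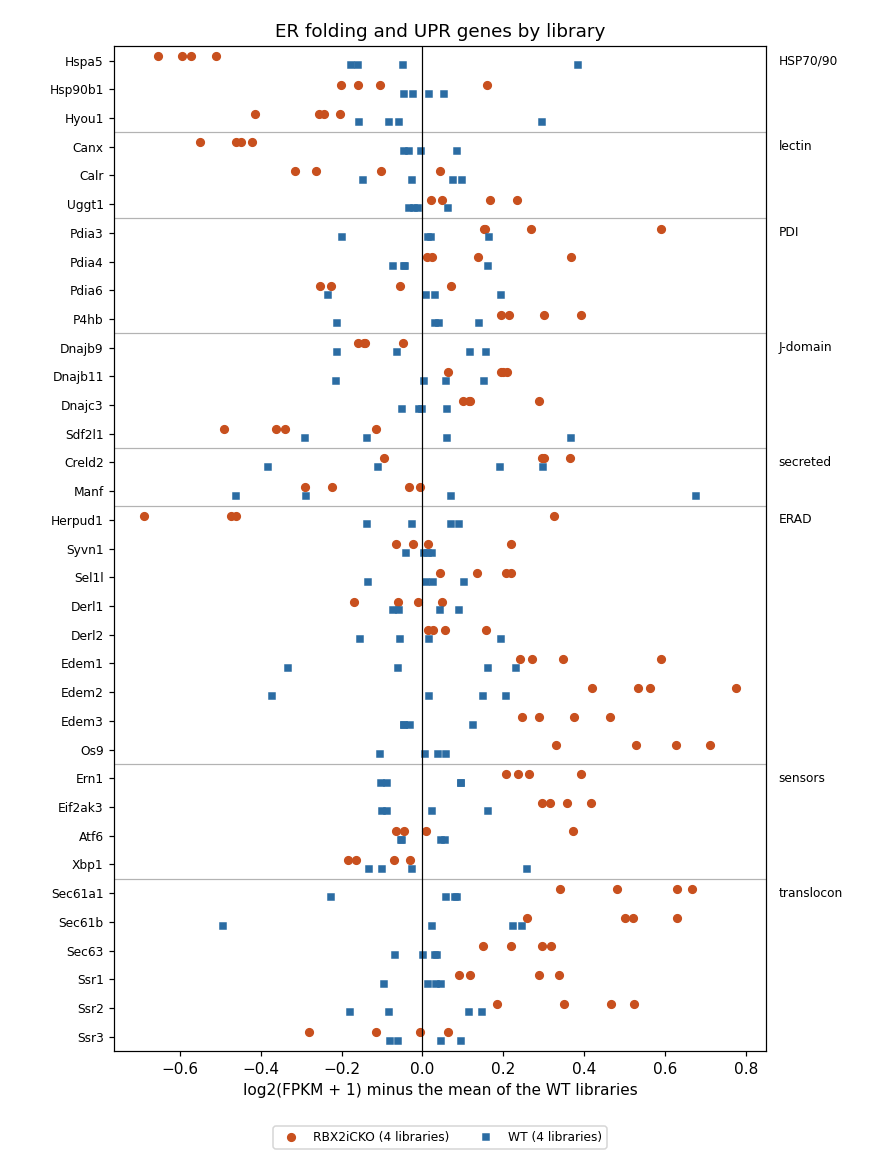
Each row is 1 of the 35 tested ER genes, grouped by role, and each point is 1 library (orange circles RBX2iCKO, blue squares WT), plotted as log2(FPKM + 1) minus the mean of the 4 WT libraries. Hspa5 and Canx have all 4 RBX2iCKO points left of every WT point, while Os9, Edem2, Edem3, Eif2ak3 and Sec61a1 have all 4 to the right.

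The lumenal chaperones of the HSP70 and HSP90 families gave the largest decrease. Hspa5 (ENSMUSG00000026864, chromosome 2, 34771970 to 34777547 on the plus strand of mm10) encodes BiP, the HSP70 of the ER lumen, which also holds the UPR sensors inactive. It had 133, 120.3, 125 and 127 FPKM in RBX2iCKO and 169.8, 168, 248 and 183 FPKM in WT. All 4 RBX2iCKO libraries lay below all 4 WT libraries, and WT replicate 3 was far above the other WT libraries. The means were 126 ± 5.25 FPKM in RBX2iCKO and 192 ± 37.8 FPKM in WT (SD, n = 4 each), a 1.52-fold decrease (log2 difference -0.58, SE 0.12, limma adjusted p = 0.00735), and 1.06% of all genes tested had a lower difference. Without WT replicate 3 the log2 difference was -0.46, and the gene passed the threshold in all 8 fits that left out 1 library.

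Hyou1, a large HSP70-related chaperone that acts as a nucleotide exchange factor for BiP, had 8.04, 7.79, 7.72 and 6.81 FPKM in RBX2iCKO and 9.004, 8.34, 11.8 and 8.83 FPKM in WT. These groups did not overlap either, but the difference did not pass as deposited (log2 -0.28, SE 0.11, adjusted p = 0.0621) and did after scaling (-0.52, adjusted p = 0.00716). The scaled Hyou1 call was kept in all 8 scaled fits without 1 library. Hsp90b1, the ER member of the HSP90 family known as GRP94, had 61.9, 48.0, 51.4 and 49.5 FPKM in RBX2iCKO and 54.5, 53.6, 57.4 and 56.0 FPKM in WT. Its groups overlapped, because RBX2iCKO replicate 1 was the highest of all 8 libraries, and it passed only after scaling (log2 -0.08, adjusted p = 0.482 as deposited; -0.34, adjusted p = 0.0224 scaled). The scaled Hsp90b1 call was kept in 4 of the 8 scaled fits without 1 library.

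Among the genes of the lectin cycle, Canx fell and the others did not pass as deposited. Canx (ENSMUSG00000020368, chromosome 11, 50293961 to 50325673 on the minus strand) encodes calnexin, the membrane-bound lectin chaperone. It had 57.1, 55.5, 52.1 and 56.0 FPKM in RBX2iCKO and 76.6, 74.3, 81.5 and 75.1 FPKM in WT. The groups were well apart and each was tight, with means of 55.2 ± 2.16 FPKM in RBX2iCKO and 76.9 ± 3.23 FPKM in WT (SD, n = 4 each), a 1.39-fold decrease (log2 -0.47, SE 0.06, adjusted p = 0.00163). It passed in all 8 fits without 1 library, as deposited and after scaling.

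Calr, calreticulin, the soluble lectin chaperone that also binds calcium in the lumen, had 118, 95.2, 107 and 91.9 FPKM in RBX2iCKO and 112, 103, 123 and 121 FPKM in WT. Those ranges overlapped, and the difference passed after scaling only (log2 -0.16, adjusted p = 0.197 as deposited; -0.43, adjusted p = 0.00943 scaled). The scaled Calr call was kept in all 8 scaled fits without 1 library. Uggt1, the glucosyltransferase that returns unfinished glycoproteins to the lectins, had 8.86, 8.41, 7.68 and 7.51 FPKM in RBX2iCKO and 7.20, 7.27, 7.33 and 7.77 FPKM in WT. It did not pass on either scale, and its sign turned with the scale (log2 0.12, adjusted p = 0.208 as deposited; -0.12, adjusted p = 0.245 scaled).

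**Figure D2:**
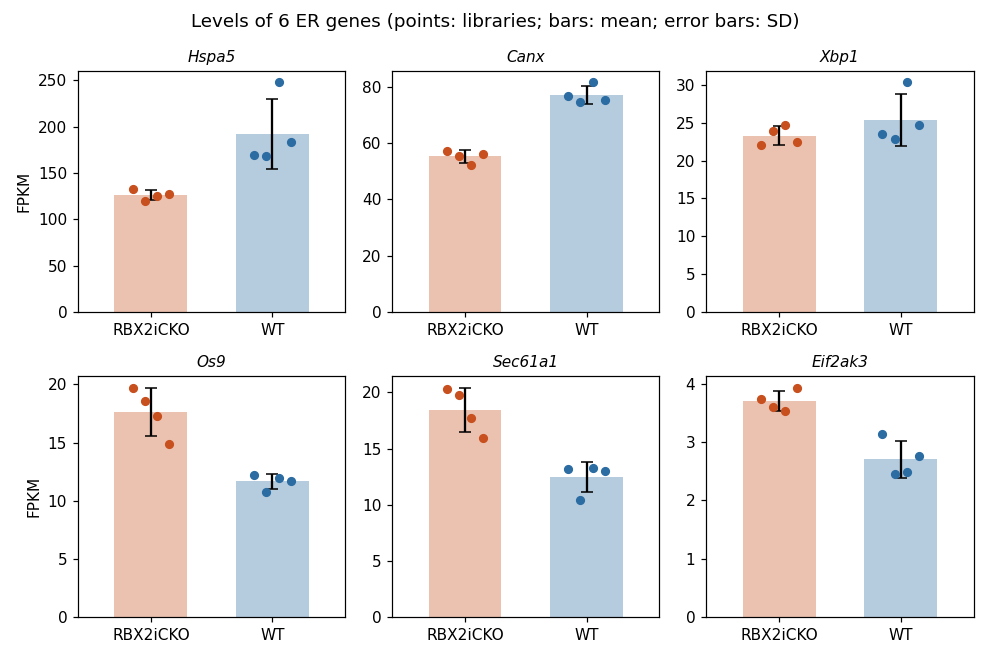
FPKM (vertical axes, from 0) of 6 ER genes in the RBX2iCKO (left) and WT (right) libraries: points are libraries, bars means and error bars SD over 4 libraries. Hspa5 and Canx are lower and Os9, Sec61a1 and Eif2ak3 higher in RBX2iCKO with no overlap, while the Xbp1 groups overlap and WT replicate 3 has the highest value of both Hspa5 and Xbp1.

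Many chaperone genes are known targets of ATF6 and XBP1 through the ER stress response element (ERSE), in which CCAAT is followed, after a spacer of 9 bases, by CCACG. This element was searched on both strands in RefSeq promoter windows of GRCm38.p6, from 250 bases before to 50 bases after each annotated start, together with its variant ERSE-II, ATTGG and CCACG with 1 base of any kind between. The patterns can share a CCACG. Only exact matches of the fixed letters were counted, so a window without a match may still hold a copy that differs by 1 base. Windows were found for 30 of the 36 genes, and 9 of these 30 held ERSE. It was found in 37 of all 27025 genes searched, and in 39 of all 32851 windows (0.119%). The variant was in the windows of 2 others of the 30 genes, and in 12 of all 27025 genes searched (0.0365% of all windows). The 36 genes were picked by name and include chaperone genes, many of which are known targets through this element. Its share among them therefore does not stand apart from how they were chosen. Each matched site is written 5′ to 3′ along the element, with the fixed letters in capitals.
Hspa5: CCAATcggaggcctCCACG
Canx: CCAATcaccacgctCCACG
Calr: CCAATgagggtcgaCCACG
Hsp90b1, first site: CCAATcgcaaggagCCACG
Hsp90b1, second site: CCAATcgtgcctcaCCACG
Pdia6: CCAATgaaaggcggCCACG
Dnajc3: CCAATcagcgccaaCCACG
Creld2: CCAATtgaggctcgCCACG
Syvn1: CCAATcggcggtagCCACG
Derl3: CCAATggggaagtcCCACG
Herpud1, variant: ATTGGgCCACG
Dnajb11, variant: ATTGGcCCACG
The Hspa5 site lay at chr2:34772025-34772043 and began 65 bases before the start, and the Canx site lay at chr11:50325800-50325818 on the minus strand and began 145 bases before it. A match is a run of letters, and no binding was measured here.

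Whole windows are shown for both genes that fell and for Os9 and Edem2, members that rose and whose windows held no exact match of either element. Exact matches are in capitals.
Hspa5, chr2:34771840-34772139, plus strand: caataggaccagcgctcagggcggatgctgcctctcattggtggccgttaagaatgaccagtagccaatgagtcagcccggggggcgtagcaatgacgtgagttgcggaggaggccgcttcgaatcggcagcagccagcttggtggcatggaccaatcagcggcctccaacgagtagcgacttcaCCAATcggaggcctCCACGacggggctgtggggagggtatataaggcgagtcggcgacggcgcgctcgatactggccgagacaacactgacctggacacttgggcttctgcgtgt
Canx, chr11:50325624-50325923, minus strand: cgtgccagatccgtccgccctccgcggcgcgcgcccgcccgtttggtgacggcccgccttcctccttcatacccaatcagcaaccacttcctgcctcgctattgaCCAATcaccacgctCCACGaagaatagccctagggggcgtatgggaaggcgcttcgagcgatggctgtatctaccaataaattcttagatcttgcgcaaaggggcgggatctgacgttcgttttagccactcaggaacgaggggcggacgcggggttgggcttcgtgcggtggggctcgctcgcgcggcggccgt
Os9, chr10:127121111-127121410, minus strand: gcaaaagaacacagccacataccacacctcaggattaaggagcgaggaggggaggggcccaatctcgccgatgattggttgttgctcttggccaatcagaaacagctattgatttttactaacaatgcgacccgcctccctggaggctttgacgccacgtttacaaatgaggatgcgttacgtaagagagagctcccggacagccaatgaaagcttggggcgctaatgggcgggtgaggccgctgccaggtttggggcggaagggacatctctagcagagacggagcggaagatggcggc
Edem2, chr2:155729426-155729725, minus strand: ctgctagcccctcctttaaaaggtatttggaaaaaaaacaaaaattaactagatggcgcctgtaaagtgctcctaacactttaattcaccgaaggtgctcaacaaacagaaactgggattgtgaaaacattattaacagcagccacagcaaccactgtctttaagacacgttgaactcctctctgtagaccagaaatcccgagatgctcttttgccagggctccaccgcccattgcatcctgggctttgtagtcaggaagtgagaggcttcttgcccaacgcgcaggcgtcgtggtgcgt

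Of the 9 genes with ERSE, 8 were tested, and 0 rose and 2 fell, with log2 differences from -0.58 for Hspa5 to 0.22 for Creld2 and a median of -0.10. Of the 19 genes whose windows held no exact match of either element, all tested, 8 rose and 0 fell, with a median of 0.24. Of all genes tested, 33.5% were higher and 3.52% lower. After scaling, 0 of the 8 were higher and 5 lower, and of the 19, 1 was higher and 4 lower, against 8.14% and 11.6% of all genes. Of the 6 genes without a window, 2 rose and 0 fell as deposited, and 1 was higher and 2 lower after scaling. Neither gene with the variant passed on either scale. These are counts over genes that share libraries, and whether the element moves with the difference was not tested.

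Of the 4 disulfide isomerase genes 1 rose as deposited, where 33.5% of all genes were higher. After scaling 1 was lower, as were 11.6% of all genes. P4hb, the isomerase PDIA1, which is also the beta subunit of the collagen prolyl hydroxylase, had 90.1, 84.5, 79.6 and 78.5 FPKM in RBX2iCKO and 69.9, 59.0, 75.5 and 70.4 FPKM in WT. The groups did not overlap, and it rose 1.21-fold (log2 0.28, SE 0.09, adjusted p = 0.0337), which is 0.06 above the median of all genes. The call was kept in 3 of the 8 fits without 1 library (lost without RBX2iCKO replicate 1 or 2 or WT replicate 1, 2 or 4, adjusted p from 0.0587 to 0.0781), and after scaling the difference was 0.01. Pdia3, the isomerase that works with the lectin chaperones, had 81.2, 59.7, 64.8 and 59.8 FPKM in RBX2iCKO and 54.4, 46.6, 60.2 and 54.2 FPKM in WT. The highest WT library was above the lowest RBX2iCKO libraries, and the difference did not pass (log2 0.29, adjusted p = 0.0707). Pdia4, another lumenal isomerase, had 15.6, 13.2, 12.02 and 12.1 FPKM in RBX2iCKO and 13.4, 11.3, 11.5 and 11.5 FPKM in WT, with overlapping groups and no call (log2 0.14, adjusted p = 0.277). Pdia6, an isomerase that acts on BiP clients and the IRE1 sensor, averaged 30.1 ± 3.31 FPKM in RBX2iCKO and 32.7 ± 4.02 FPKM in WT (SD, n = 4 each) and was lower after scaling only (-0.38, adjusted p = 0.0187).

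None of the 4 co-chaperone genes passed as deposited, and 2 of them were lower after scaling, where 11.6% of all genes were lower. Dnajb9 encodes ERdj4, a J-domain protein that directs BiP to ERAD clients and to IRE1. It had 20.7, 20.6, 22.1 and 20.4 FPKM in RBX2iCKO and 24.9, 21.9, 25.7 and 19.7 FPKM in WT, with overlapping groups (log2 -0.12, adjusted p = 0.283 as deposited; -0.38, adjusted p = 0.0183 scaled). The scaled Dnajb9 call was kept in 7 of the 8 scaled fits without 1 library. Sdf2l1, a partner of the J-domain proteins that helps keep BiP clients in solution, had 3.51, 2.86, 2.48 and 2.80 FPKM in RBX2iCKO and 4.09, 2.997, 5.30 and 3.44 FPKM in WT. WT replicate 3 was again the highest, and the difference passed after scaling only (log2 -0.33, adjusted p = 0.0978 as deposited; -0.53, adjusted p = 0.0229 scaled). The scaled Sdf2l1 call was kept in 6 of the 8 scaled fits without 1 library. Dnajb11, the lumenal J-domain protein ERdj3, had 19.1, 19.1, 19.3 and 17.3 FPKM in RBX2iCKO and 16.6, 14.1, 17.3 and 18.5 FPKM in WT. Dnajc3, known as p58IPK, had 14.8, 13.01, 12.9 and 13.03 FPKM in RBX2iCKO and 11.9, 11.5, 12.5 and 11.9 FPKM in WT. The Dnajc3 groups did not overlap and the Dnajb11 groups did, and neither gene passed (adjusted p = 0.095 for Dnajc3 and 0.149 for Dnajb11).

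Manf and Creld2 encode lumenal factors that are induced by ER stress and partly secreted. Manf had 10.9, 11.1, 8.93 and 9.41 FPKM in RBX2iCKO and 11.8, 7.83, 18.4 and 8.96 FPKM in WT. Its WT values spread more than 2-fold, with WT replicate 3 highest, and it did not pass (log2 -0.14, SE 0.22, adjusted p = 0.624). Creld2 had 8.32, 8.78, 8.36 and 6.12 FPKM in RBX2iCKO and 7.68, 4.83, 8.35 and 6.04 FPKM in WT, and it did not pass either (log2 0.22, SE 0.16, adjusted p = 0.294).

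Of the 9 tested ERAD genes 3 rose and 0 fell as deposited, a share like the 33.5% of all genes, and after scaling 1 was higher and 1 lower. Os9, a lectin that recognises trimmed glycans and hands clients to the SEL1L and SYVN1 ligase, rose. Os9 (ENSMUSG00000040462, chromosome 10, 127095650 to 127121131 on the minus strand) had 19.7, 18.5, 17.2 and 14.9 FPKM in RBX2iCKO and 12.2, 10.8, 12.002 and 11.7 FPKM in WT. All 4 RBX2iCKO libraries were higher, with means of 17.6 ± 2.06 FPKM in RBX2iCKO and 11.7 ± 0.631 FPKM in WT (SD, n = 4 each), a 1.51-fold increase (log2 0.55, SE 0.09, adjusted p = 0.0034). It was 1 of 2 members still higher after scaling (0.29, adjusted p = 0.0301), a call kept in 2 of the 8 scaled fits without 1 library.

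Edem2 and Edem3 encode mannosidase family proteins that trim the glycans of proteins marked for ERAD. Edem2 had 5.21, 4.62, 6.20 and 5.08 FPKM in RBX2iCKO and 3.25, 2.25, 3.67 and 3.85 FPKM in WT, and rose 1.62-fold, the largest ratio of means among the tested members (log2 0.57, SE 0.13, adjusted p = 0.0122). Edem3 had 7.96, 6.93, 6.71 and 7.43 FPKM in RBX2iCKO and 5.36, 5.29, 6.08 and 5.30 FPKM in WT, and rose 1.32-fold (log2 0.34, SE 0.08, adjusted p = 0.0103). Neither pair of groups overlapped, both calls were kept in all 8 fits without 1 library as deposited, and neither gene passed after scaling (adjusted p = 0.0689 for Edem2 and 0.377 for Edem3). Their relative Edem1 averaged 3.88 ± 0.555 FPKM in RBX2iCKO and 2.82 ± 0.646 FPKM in WT (SD, n = 4 each) and did not pass (adjusted p = 0.0599).

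Herpud1, the most abundant ERAD gene here, encodes a membrane protein that gathers the ligase complex and is itself a UPR target. It had 87.5, 75.3, 153 and 88.2 FPKM in RBX2iCKO and 119.8, 128, 129.8 and 111 FPKM in WT. In 3 RBX2iCKO libraries it was below every WT library and in RBX2iCKO replicate 3 above every one, and it did not pass (log2 -0.32, SE 0.19, adjusted p = 0.193). The ligase genes Syvn1 and Sel1l and the derlin genes Derl1 and Derl2, which form the channel of the complex, had log2 differences from -0.05 to 0.15 and did not pass as deposited, and Derl1 was lower after scaling (-0.31, adjusted p = 0.0152). Derl3, a derlin of secretory tissues, was below the limit for testing, with 5, 9, 6 and 6 fragments in RBX2iCKO and 0, 0, 4 and 0 fragments in WT. Counts this small give no fold change that can be relied on.

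The sensors were read at the level of their RNA, which does not show whether they were active. Ern1, which encodes IRE1, the kinase and nuclease that splices Xbp1 RNA, had 4.08, 3.89, 4.55 and 3.98 FPKM in RBX2iCKO and 3.52, 2.94, 2.98 and 3.52 FPKM in WT. Eif2ak3, which encodes the kinase PERK, had 3.73, 3.60, 3.54 and 3.93 FPKM in RBX2iCKO and 3.14, 2.45, 2.48 and 2.76 FPKM in WT. In neither gene did the groups overlap. Ern1 rose 1.27-fold (log2 0.27, SE 0.08, adjusted p = 0.0293) and Eif2ak3 1.37-fold (log2 0.35, SE 0.08, adjusted p = 0.0128), which is 0.06 and 0.13 above the median of all genes. Neither passed after scaling, and the Ern1 call was lost in 4 of the 8 fits without 1 library (RBX2iCKO replicate 1 or 3, WT replicate 2 or 3, adjusted p from 0.0557 to 0.0738).

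Atf6, the sensor that is cut in the Golgi to release a transcription factor, had 23.0, 21.8, 29.9 and 22.1 FPKM in RBX2iCKO and 22.01, 23.6, 23.8 and 22.04 FPKM in WT. Apart from RBX2iCKO replicate 3, which was highest as it was for Herpud1, the libraries overlapped closely (log2 0.07, adjusted p = 0.608). Xbp1, the transcription factor gene downstream of IRE1, had 22.03, 23.9, 24.7 and 22.4 FPKM in RBX2iCKO and 23.4, 22.9, 30.3 and 24.7 FPKM in WT. Its groups overlapped, and the difference passed after scaling only (log2 -0.11, adjusted p = 0.350 as deposited; -0.37, adjusted p = 0.0183 scaled). The scaled Xbp1 call was kept in 7 of the 8 scaled fits without 1 library. Values per gene do not separate spliced from unspliced Xbp1.

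Of the 6 translocon genes 4 rose and 0 fell as deposited, where 33.5% of all genes were higher, and after scaling 1 was higher and 1 lower. Sec61a1 (ENSMUSG00000030082, chromosome 6, 88503579 to 88518905 on the minus strand) encodes the channel subunit. It had 20.3, 19.8, 17.7 and 16.0 FPKM in RBX2iCKO and 13.2, 10.48, 13.2 and 12.98 FPKM in WT. The groups did not overlap, WT replicate 2 was well below the other WT libraries, and the gene rose 1.48-fold (log2 0.53, SE 0.10, adjusted p = 0.00562). It stayed higher after scaling (0.27, adjusted p = 0.0433), a call kept in 1 of the 8 scaled fits without 1 library.

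Ssr2, a subunit of the TRAP complex that assists the channel, had 31.6, 30.3, 24.7 and 27.9 FPKM in RBX2iCKO and 23.6, 19.0, 24.1 and 20.4 FPKM in WT, and rose 1.32-fold (log2 0.38, SE 0.10, adjusted p = 0.0191). Sec63, a J-domain protein that brings BiP to the channel, had 12.5, 11.1, 12.3 and 11.7 FPKM in RBX2iCKO and 9.88, 9.37, 10.1 and 10.1 FPKM in WT, and rose 1.20-fold (log2 0.24, SE 0.07, adjusted p = 0.0196). The groups did not overlap in either gene, and neither passed after scaling. The Ssr2 call was lost without RBX2iCKO replicate 2 (adjusted p = 0.0507) or WT replicate 2 (adjusted p = 0.05002). The small channel subunit gene Sec61b averaged 11.4 ± 1.30 FPKM in RBX2iCKO and 8.02 ± 1.95 FPKM in WT (SD, n = 4 each) and rose (log2 0.48, adjusted p = 0.0439), a call kept in 3 of the 8 fits without 1 library (lost without RBX2iCKO replicate 1, 2 or 3 or WT replicate 2 or 3, adjusted p from 0.0601 to 0.103). The TRAP genes Ssr1 and Ssr3 did not pass. Ssr3, the most abundant gene of this role, had 60.3, 53.1, 47.3 and 57.4 FPKM in RBX2iCKO and 61.6, 54.5, 59.5 and 55.2 FPKM in WT, and was lower after scaling (log2 -0.08, adjusted p = 0.444 as deposited; -0.35, adjusted p = 0.0201 scaled). The scaled Ssr3 call was kept in 4 of the 8 scaled fits without 1 library. Ssr1 averaged 7.92 ± 0.759 FPKM in RBX2iCKO and 6.70 ± 0.335 FPKM in WT (SD, n = 4 each; adjusted p = 0.064).

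**Figure D3:**
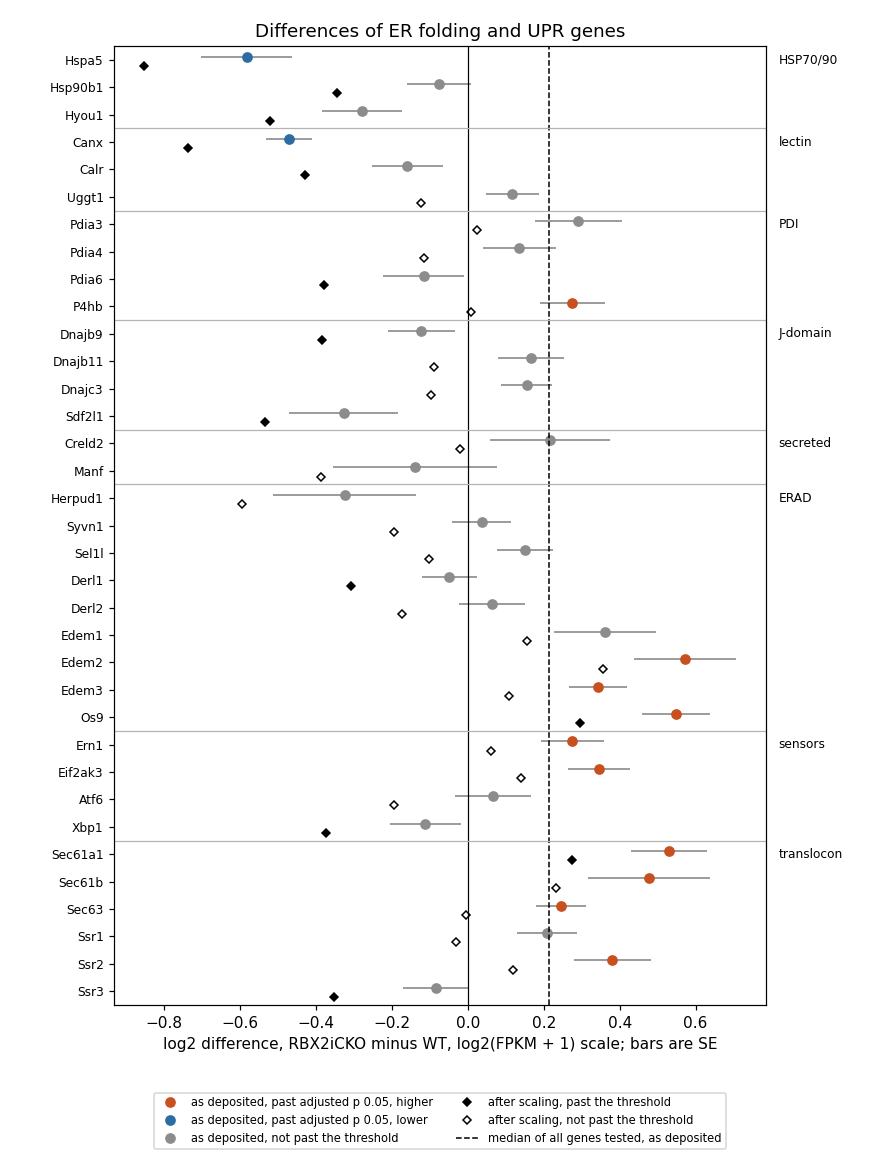
Log2 differences (RBX2iCKO minus WT, log2(FPKM + 1) scale, bars SE) of the 35 tested ER genes as deposited (circles, coloured where the adjusted p is under 0.05) and after median-of-ratios scaling (diamonds, filled where it is under 0.05), with the median of all genes, 0.21, as a dashed line. As deposited 10 genes are higher and 2 lower, and after scaling 2 are higher and 11 lower.

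Some libraries held the highest or lowest value of many of these genes. WT replicate 3 had the highest WT value of 21 of the 35 tested genes, while it was the highest for 27.4% of all genes tested, and WT replicate 2 had the lowest of 29, against 45.8% of all genes. RBX2iCKO replicate 1 had the highest RBX2iCKO value of 21 of the 35, against 27.7% of all genes, while RBX2iCKO replicate 3 had the highest value of 9 and the lowest of 13. RBX2iCKO replicate 1 also had the high erythroid sum given above. The numbers in the library titles fall into a lower series of 3 libraries, 1 of them RBX2iCKO, and a higher series of 5, 3 of them RBX2iCKO. For Hspa5 the log2 difference was -0.34 in the lower series and -0.77 in the higher, and for Canx -0.40 and -0.51. The 10 genes that rose had positive differences in both series. Ern1 (0.27 and 0.27) and Eif2ak3 (0.33 and 0.37) were no larger in the lower series. The others were larger there, such as Sec61a1 (0.74 and 0.41) and P4hb (0.48 and 0.15). Signs differed between the series for some genes that did not pass as deposited, such as Calr (0.13 and -0.31).

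The rest of the ER pathway was read from 8 further lists with 143 genes, of which 138 were tested. As deposited, 51 rose (37.0%) and 2 fell (1.45%), against 33.5% and 3.52% of all genes. After scaling 10 were higher (7.25%) and 20 lower (14.5%), against 8.14% and 11.6% of all genes. These shares of all genes also stand beside the counts of each list below. The list of PERK to ATF4 outputs had the highest median difference, 0.43, with 7 of 10 genes higher and 0 lower as deposited and 2 higher and 0 lower after scaling. Nupr1, a stress-induced chromatin protein gene, had 6.31, 3.76, 7.19 and 3.76 FPKM in RBX2iCKO and 1.87, 0.769, 1.36 and 1.79 FPKM in WT, and rose 3.63-fold (log2 1.33, SE 0.22, adjusted p = 0.00337). Trib3, a pseudokinase gene induced by ATF4 and CHOP, rose 1.89-fold, and Ppp1r15a, the GADD34 phosphatase subunit that restores translation, rose 1.70-fold. Nupr1 and Trib3 remained higher after scaling (adjusted p = 0.00627 and 0.014), and Ppp1r15a did not pass there (adjusted p = 0.0691).

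Of 13 tested ER shape and ER-phagy genes, with a median of 0.32, 7 were above and 6 below the median of all genes. As deposited 6 rose and 0 fell, against 33.5% and 3.52% of all genes. After scaling 4 were higher and 3 lower, against 8.14% and 11.6% of all genes. Ckap4, a protein of ER sheets, averaged 18.0 ± 2.54 FPKM in RBX2iCKO and 9.53 ± 0.695 FPKM in WT (SD, n = 4 each; log2 0.84, SE 0.10, adjusted p = 0.00134). The reticulon gene Rtn4 and the atlastin gene Atl3, which shape and fuse ER tubules, rose 1.85-fold and 1.65-fold. Ckap4, Rtn4 and Atl3 remained higher after scaling (adjusted p from 0.00375 to 0.0134). Of 12 tested UPR transducers and site proteases, with a median of 0.27, 6 rose and 0 fell as deposited, against 33.5% and 3.52% of all genes, and after scaling 1 was higher and 4 lower. Creb3l2, an ATF6-related factor gene known for collagen secretion in cartilage, rose 1.70-fold, Mbtps1, the protease that cuts ATF6, 1.49-fold, and Creb3 1.47-fold, of which Creb3l2 passed after scaling (adjusted p = 0.0269), a call kept in 4 of the 8 scaled fits without 1 library and lost without RBX2iCKO replicate 2 or WT replicate 2, 3 or 4.

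Of 27 further lumenal chaperones and oxidoreductases tested, 9 rose and 0 fell as deposited, about the share of all genes, and after scaling 1 was higher and 1 lower. Ppib, cyclophilin B, which acts on collagen, rose 1.72-fold and stayed higher after scaling (adjusted p = 0.0146). The collagen chaperone gene Serpinh1 rose 1.51-fold, with 127, 108, 83.9 and 88.2 FPKM in RBX2iCKO and 74.4, 67.5, 66.2 and 62.3 FPKM in WT, and the thioredoxin-like gene Txndc12 rose 1.43-fold. Neither passed after scaling. The summed fibroblast markers given above were also higher in RBX2iCKO, and whether they vary together with these genes was not tested. Of 23 genes of vesicle export, with a median of 0.080 against 0.21 for all genes, 7 rose and 0 fell as deposited, a lower share than the 33.5% of all genes, and after scaling 1 was higher and 6 lower. Among the 7 were the KDEL receptor gene Kdelr3, which returns chaperones from the Golgi, 2.48-fold (7.73 ± 2.43 FPKM in RBX2iCKO and 3.12 ± 0.704 FPKM in WT, SD, n = 4 each; adjusted p = 0.00567), the coat gene Sec31a 1.25-fold and the export factor gene Mia3 1.29-fold. Kdelr3 passed after scaling, and Sec31a and Mia3 did not (adjusted p = 0.015, 0.588 and 0.522, in that order).

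Of 24 further ERAD genes 7 rose and 1 fell as deposited, a lower share of increases than the 33.5% of all genes, and after scaling 0 were higher and 3 lower. As deposited, Fam8a1, a partner of the SYVN1 ligase, rose 1.38-fold, the ubiquitin-conjugating enzyme gene Ube2j1 1.32-fold and Herpud2 1.24-fold, and none of these 3 passed after scaling (adjusted p = 0.0583, 0.409 and 0.778, in that order). Of 18 tested genes of signal recognition and cleavage and of the translocon 6 rose and 0 fell as deposited, about the share of all genes, and after scaling 1 was higher and 2 lower. Tram2 rose 1.72-fold, Sec62 1.33-fold and Tram1 1.29-fold, of which Tram2 passed after scaling (adjusted p = 0.0276), in 3 of the 8 scaled fits without 1 library. Of 11 oligosaccharyltransferase genes, whose enzyme attaches sugar chains to new proteins, 3 rose and 1 fell as deposited, against 33.5% and 3.52% of all genes. After scaling 0 of the 11 were higher and 1 lower, against 8.14% and 11.6% of all genes. Tusc3 and Ostc rose 1.28-fold and 1.24-fold as deposited, and neither passed after scaling (adjusted p = 0.450 for Tusc3 and 0.797 for Ostc). The Ostc call was lost without RBX2iCKO replicate 1 or 2 or WT replicate 2. Magt1, which encodes an alternative to the Tusc3 subunit, fell 1.35-fold, with 9.39, 8.10, 7.72 and 8.99 FPKM in RBX2iCKO and 11.7, 11.2, 13.5 and 9.71 FPKM in WT (adjusted p = 0.0184 as deposited and 0.00475 scaled).

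**Figure D4:**
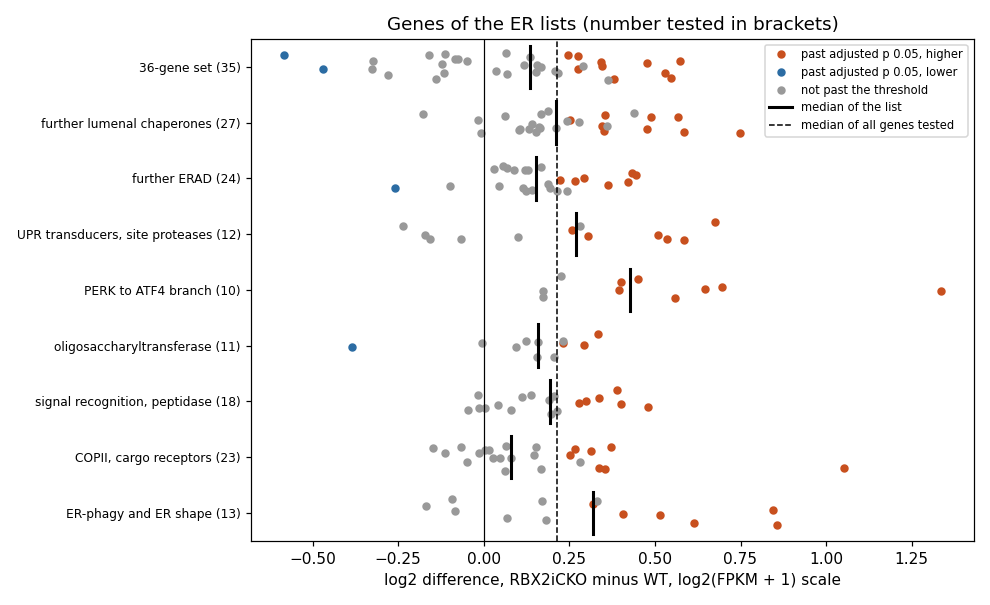
Each point is the log2 difference of 1 tested gene (RBX2iCKO minus WT, log2(FPKM + 1) scale, as deposited) in the 36-gene set and in 8 further ER lists, with the number tested in brackets, thick black lines for list medians and a dashed line for the median of all genes, 0.21. The PERK to ATF4 list has the highest median, 0.43, and the 2 lowest points of the 36-gene set are Hspa5 and Canx.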

How the data were processed

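The authors deposited FPKM values for 8 libraries in 1 table, on mm10 according to the submitters' processing notes. Aligner, counter, annotation and strand setting were not given in the sources used here. Symbols and positions are from GENCODE M21, which held 97.8% of the identifiers. Because low values step in single fragments, whole fragments were recovered for every tested gene (tolerance 0.01), at 53 to 13028 per library for tested members. The GENCODE M21 exon length gave whole fragments for 2 of the 36 genes. For the others, the smallest whole length that did so was searched for and used. Exons of Hsp90b1, Pdia3, Manf, Syvn1 and Derl2 overlap those of other expressed genes. Where the other gene lies on the opposite strand, reads cannot be told apart without a strand setting. Hsp90b1 and Manf also each overlap a gene on their own strand, where a strand setting would not separate them.

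For the 13050 genes with a mean of at least 0.5 FPKM, log2(FPKM + 1) was compared, RBX2iCKO minus WT, by limma's trended moderated test (limma 3.58.1, R 4.3.3). P-values were adjusted over all of them by Benjamini and Hochberg's method, with a threshold of 0.05. Log2 differences understate low genes, and folds are ratios of mean FPKM. Scaled values were divided by median-of-ratios factors. The test was checked on simulated data. Alternatives were other pseudocounts, filters and scalings, the title-number series as a covariate, array weights, voom on recovered fragments, and each library left out. Values in every library are given for the sensors and, in each other role, for the 3 smallest p-values and the highest mean. Of each further list the 3 smallest p-values are named. Members and lists were chosen with earlier results of these data known. The levels of some single marker genes are not reported here.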

Additional observations from a re-analysis of the deposited data

Results flagged for a closer look

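In 13 of 122 sets of 4 libraries that were examined, 1 library lay far from the other 3, with its gap to the nearest above Dixon's critical share of the group's range. Chance gives about 6.1 such sets. RBX2iCKO replicate 3 was highest for Herpud1 (153 FPKM, the others 75.3 to 88.2), Atf6 (29.9, the others 21.8 to 23.02) and Dnajb9 (22.1, the others 20.4 to 20.7). RBX2iCKO replicate 1 was highest for Dnajc3 (14.8 FPKM, the others 12.9 to 13.03) and Rtn4 (45.5, the others 34.6 to 35.5), and RBX2iCKO replicate 4 was lowest for Dnajb11 (17.3 FPKM, the others 19.1 to 19.3) and Tram2 (1.77, the others 2.14 to 2.20).

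Among the WT libraries, replicate 1 was highest for Pdia4 (13.4 FPKM, the others 11.3 to 11.5) and Creb3l2 (7.43, the others 6.47 to 6.54) and lowest for Mia3 (10.8, the others 11.9 to 12.1). WT replicate 2 was lowest for Sec61a1 (10.48 FPKM, the others 12.98 to 13.2). WT replicate 3 was highest for Edem3 (6.08 FPKM, the others 5.29 to 5.36) and had the only Derl3 fragments of the group (0.149 FPKM, the others 0). With the others at 0, any Derl3 value would count as far, so this set cannot be weighed against the number given by chance. No cause was tested for any of these values.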

How the results depend on the processing

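Rnf7, Hspa5 and Canx stayed lower and past the threshold in every alternative. Counts of ER genes depended on scaling. With median-of-ratios scaling 2 of the 36 genes were higher and 11 lower (median log2 difference of members -0.12), and of the further ER genes 10 were higher and 20 lower. With quantile normalization the numbers were 2 and 6 (median -0.092) and 11 and 10, where 864 of all 13050 genes were higher and 1241 lower. Without mitochondrial-encoded genes 3 of the 36 were higher (median 0.025), and 18 further genes were higher and 8 lower. There, 2080 of all 13038 genes were higher and 711 lower. With array weights 4 of the 36 and 4 further genes were lower, beside 488 of all 13050 genes. With no filter 20 of the 36 were above the median of all genes, but that median was 0.091 over 22687 genes there, against 0.21 with the filter.

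Signs turned for genes with small differences. With median-of-ratios scaling the log2 difference was -0.12 for Uggt1, -0.12 for Pdia4, -0.10 for Dnajc3, -0.090 for Dnajb11, -0.021 for Creld2, -0.19 for Atf6, -0.0039 for Sec63, -0.19 for Syvn1, -0.10 for Sel1l, -0.17 for Derl2 and -0.030 for Ssr1. With quantile normalization it was -0.12 for Uggt1, -0.092 for Pdia4, -0.071 for Dnajc3, -0.042 for Dnajb11, -0.035 for Creld2, -0.011 for Ern1, -0.11 for Atf6, -0.23 for Syvn1, -0.071 for Sel1l, -0.19 for Derl2 and -0.039 for Ssr1. Without mitochondrial-encoded genes it was -0.048 for Atf6, -0.065 for Syvn1 and -0.040 for Derl2, and with array weights -0.0090 for Syvn1. Beyond the change of scale itself, the cause was not tested.

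Leaving out each library in turn gave 6 (without WT replicate 2) to 10 higher and 2 to 3 lower of the 36 genes, and 33 (without WT replicate 2) to 50 higher and 1 to 3 lower further genes, with a median for the 36 of 0.086 to 0.16. The same fits after scaling gave 0 to 2 higher and 7 to 14 lower of the 36 (median -0.16 to -0.10), and 7 to 13 higher and 15 to 20 lower further genes. Of all 13050 genes, 2895 (without WT replicate 2) to 4386 were higher and 327 to 452 lower in these fits as deposited. After scaling, 650 to 1273 of all genes were higher and 1062 to 1546 lower. As deposited, signs turned for Atf6 and Syvn1 without RBX2iCKO replicate 3 and for Manf without WT replicate 3. Over these fits on both scales the ranges were -0.16 to 0.15 for Uggt1, -0.031 to 0.32 for P4hb, -0.073 to 0.35 for Pdia3, -0.19 to 0.19 for Pdia4, -0.14 to 0.18 for Dnajc3, -0.13 to 0.22 for Dnajb11, -0.12 to 0.32 for Creld2, -0.30 to 0.11 for Atf6, -0.025 to 0.28 for Sec63, -0.011 to 0.34 for Ostc, -0.26 to 0.070 for Syvn1, -0.16 to 0.19 for Sel1l, -0.21 to 0.13 for Derl2, -0.070 to 0.25 for Ssr1, -0.51 to 0.087 for Manf and -0.025 to 0.34 for Herpud2. No paired analysis was possible because the labels give the groups no shared replicate numbers. Depth limits Derl3 most, with at most 9 fragments in a library.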

Other observations

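After median-of-ratios scaling, 20 of the further ER genes were lower, 2 of which also fell as deposited. The genes in these sentences were chosen after their values were seen. They include abundant ER genes of the ventricle: Nfe2l1, an ER-anchored transcription factor gene, averaged 118 ± 7.35 FPKM in RBX2iCKO and 133 ± 5.94 FPKM in WT (scaled log2 difference -0.44, limma adjusted p = 0.00606; SD, n = 4 each), and Wfs1, which encodes wolframin, 35.5 ± 4.38 FPKM in RBX2iCKO and 41.9 ± 3.34 FPKM in WT (-0.50, adjusted p = 0.0119). Cdnf, a relative of Manf, averaged 8.96 ± 0.898 FPKM in RBX2iCKO and 10.2 ± 0.161 FPKM in WT (-0.42, adjusted p = 0.00927). The ERAD ligase gene March6 fell on both scales, with 28.2 ± 2.04 FPKM in RBX2iCKO and 33.8 ± 1.40 FPKM in WT (log2 -0.26, adjusted p = 0.0199 as deposited; -0.52, adjusted p = 0.00267 scaled). Nfe2l1, Wfs1 and Cdnf did not pass as deposited (adjusted p = 0.0697, 0.0838 and 0.0878).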
